A study of Mus musculus with 24 samples.

Results

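The gene *Trp53*, which encodes the transcription factor p53, and 8 genes that are widely used as readouts of p53 activity were followed through RNA-seq libraries of mouse bone marrow–derived macrophages (BMDM). The 8 targets were *Cdkn1a*, *Mdm2*, *Ccng1*, *Phlda3*, *Sesn1*, *Zmat3*, *Aen* and *Trp53inp1*. The 9 genes were chosen by name as members of the p53 pathway. All 9 were present among the 56884 genes of the count table, and all 9 were among the 13679 genes with enough reads to be tested. Marrow from 4 wild-type female mice of 9 weeks, numbered 1, 2, 4 and 5, was grown into macrophages with M-CSF, and every mouse gave 1 library in each of 6 conditions (24 libraries). Naive cells received no cytokine, and IL-4/IL-13 cells received IL-4 and IL-13 at 20 ng/ml each for 24 hours. The other 4 conditions received the same cytokines together with an inhibitor that was also given for 1 hour beforehand. These were tunicamycin at 5 µg/ml, which blocks N-linked glycosylation and so protein folding in the endoplasmic reticulum, Sal003 at 10 µM, which blocks dephosphorylation of the initiation factor eIF2α, and oligomycin at 1 µM, an inhibitor of ATP synthase in mitochondria. There were 2 groups with oligomycin, of which 1 also received ISRIB at 1 µM, a compound that counteracts the effect of phosphorylated eIF2α. The titles, treatment fields and descriptions of the samples place ISRIB in oligomycin set A, whereas the library names place it in oligomycin set B, so the sets are kept apart under these neutral names. The cells of 1 mouse are 1 culture source, and no group with an inhibitor and no cytokine was analysed here.

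In resting cells p53 is made continuously and destroyed just as continuously, because MDM2 marks it for the proteasome. DNA damage, ribosome defects and other stresses release p53 from MDM2, and the stabilised protein then activates a set of target genes without a change of its own mRNA being needed. The targets have different roles. *Cdkn1a* encodes p21, an inhibitor of cyclin-dependent kinases, *Mdm2* and *Ccng1* feed back on p53, *Aen*, *Phlda3* and *Trp53inp1* act in cell death and survival, *Sesn1* restrains the growth kinase mTORC1, and *Zmat3* encodes an RNA-binding protein. In macrophages p21 is also induced during differentiation, and several of these genes have other regulators besides p53.

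As a description of the genes in the genome, the p53 response element was searched within 3000 bases on each side of the start of each gene's canonical transcript. An element was 2 copies of the consensus repeat of 10 bases, separated by at most 1 base, in which both central 4-base cores were intact (a C and a G around 2 bases that are each A or T) and at most 1 other base departed from the consensus. The consensus reads the same on both strands, so 1 scan covers both. Elements were found at 4 of the 9 genes and are printed 5′ to 3′ on the strand of the gene, with the cores in capitals (GRCm39, GENCODE annotation).
Cdkn1a: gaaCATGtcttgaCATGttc
Ccng1: acgCAAGcccgggCTAGtct
Zmat3: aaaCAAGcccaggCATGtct
Trp53inp1: aaaCATGtccaggaCTAGcct

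The *Cdkn1a* element at chr17:29309902-29309921 (plus strand) lay at −2836 from the start of the canonical transcript, just before the outermost annotated end of the gene, with 1 base off the consensus. The *Ccng1* element at chr11:40645763-40645782 (minus strand) lay 356 bases downstream of the start, in an intron, and also had 1 departing base. The *Zmat3* element at chr3:32418480-32418499 (minus strand) had no mismatch and lay 1409 bases downstream of the start, in an intron. The *Trp53inp1* element at chr4:11155112-11155132 (plus strand) had no mismatch, a spacer of 1 base, and a position of −1300 from the start. Among the 11958 tested protein-coding genes, 268 (2.24%) had such an element in the same window, and 39 (0.326%) had one without a mismatch. For *Trp53*, *Mdm2*, *Phlda3*, *Sesn1* and *Aen* no element that met this rule was found in this window. Elements with an altered core or more departing bases would be missed, so this says nothing about p53 binding inside the window or elsewhere.

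The libraries held between 16238727 and 26725278 reads on genes (median 18999998), and a median biological coefficient of variation of 7.1% between mice. All 7 macrophage markers (*Csf1r*, *Adgre1*, *Cd68*, *Itgam*, *Lyz2*, *Fcgr1* and *Mertk*) were present in every condition, with a summed level from 8721 CPM (the usual scale of counts relative to all reads on genes in a library) in oligomycin set A to 36302 CPM in naive cells. The 6 markers of neutrophils and their precursors summed to between 22.0 and 43.4 CPM in naive cells and between 0.0513 and 0.255 CPM with tunicamycin, where *Ly6g*, *Elane* and *Camp* were at 0. The 4 stromal markers ranged from 3.41 CPM (with tunicamycin) to 130.5 CPM (in naive cells), the 4 dendritic cell markers never exceeded 7.41 CPM, and the B cell, T cell, mast cell and erythroid markers were at or near 0. The part of these other cells in the results below was not tested. In RNA from whole cultures, fewer cells that express a gene and less of its RNA per cell cannot be told apart.

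Levels are given as CPM after TMM scaling, as mean ± SD of 4 libraries. Adjusted *P* values were obtained with the quasi-likelihood test of edgeR and corrected by Benjamini-Hochberg over all 13679 genes, and a gene is said to have risen or fallen where the adjusted *P* was under 0.05. The 4 comparisons with inhibitors share the same IL-4/IL-13 libraries as controls and are therefore not independent of one another.

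IL-4/IL-13 raised *Trp53*, *Phlda3*, *Zmat3* and *Aen* and lowered *Mdm2* and *Sesn1* relative to naive cells, a call for 6 of the 9 genes where 60.5% of all genes were called (30.1% higher and 30.4% lower). The libraries did not overlap for 6 of the 9 genes (49.7% of all genes). Only *Sesn1* also passed a 2.5-fold limit, which 11.5% of all genes did. Tunicamycin added to the cytokines raised *Mdm2*, *Ccng1* and *Aen* and lowered *Cdkn1a*, *Phlda3*, *Sesn1*, *Zmat3* and *Trp53inp1* (8 of 9, against 76.3% of all genes, 38.7% higher and 37.6% lower). The libraries did not overlap for 8 of the 9 (73.9% of all genes). *Phlda3*, *Sesn1* and *Trp53inp1* passed 2.5-fold, as did 22.6% of all genes. Sal003 raised *Cdkn1a*, *Mdm2*, *Ccng1*, *Zmat3* and *Aen* and lowered *Trp53* and *Trp53inp1* (7 of 9, against 50.6% of all genes, 25.9% higher and 24.6% lower), with no overlap for 7 (50.3%). In oligomycin set A, *Cdkn1a*, *Mdm2*, *Ccng1* and *Aen* rose and *Trp53*, *Phlda3*, *Sesn1* and *Trp53inp1* fell (8 of 9, against 66.2% of all genes, 34% higher and 32.2% lower), with no overlap for 8 (64.8%). In oligomycin set B, 4 genes rose (*Cdkn1a*, *Mdm2*, *Ccng1* and *Aen*) and 4 fell (*Trp53*, *Phlda3*, *Sesn1* and *Trp53inp1*), against 54.3% of all genes called (27.9% higher and 26.4% lower), and 7 did not overlap (50.8%). *Sesn1* alone passed 2.5-fold in set A (12.7% of all genes did), and none of the 9 did with Sal003 (7.71% of all genes) or in set B (7.96%).

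In each comparison some of the 9 genes rose and others fell. The median log2 change of the 9 genes was 0.19 with IL-4/IL-13 (−0.02 over all genes), −0.29 with tunicamycin (0.01), 0.27 with Sal003 (0.00), −0.09 in oligomycin set A (0.01) and 0.00 in set B (0.00). The targets *Mdm2* and *Aen* rose in all 4 comparisons with an inhibitor, and so did *Ccng1*, although its rise with tunicamycin was lost under other scalings, as given below. *Trp53inp1* fell in all 4, by least with Sal003. Over all 15 pairs of the 6 conditions, 103 of the 135 combinations of gene and pair were called (18.5% to 77.6% of all genes were, depending on the pair), from 9 of 15 for *Trp53* to 13 of 15 for *Sesn1*, *Aen* and *Trp53inp1*.

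**Figure D1:**
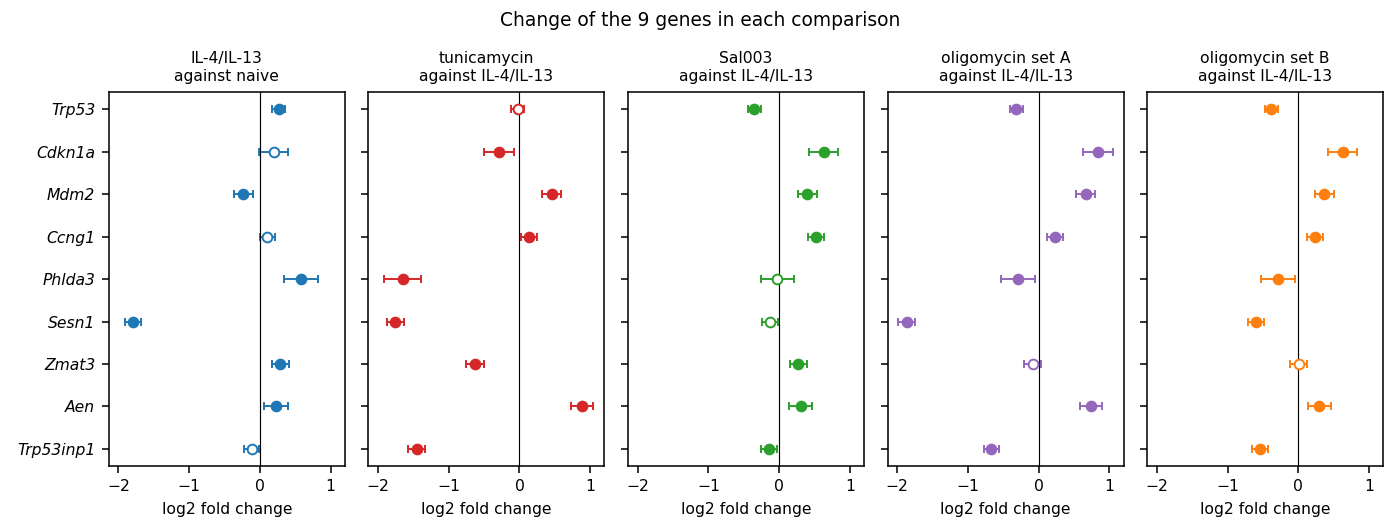
Log2 fold change of each of the 9 genes (rows) in IL-4/IL-13 against naive cells and in the 4 inhibitor groups against IL-4/IL-13, with 95% intervals as horizontal bars; filled points have an adjusted P under 0.05 (edgeR) and open points do not. *Sesn1* lies at −1.80, −1.75 and −1.87 with IL-4/IL-13, tunicamycin and oligomycin set A, while *Mdm2* and *Aen* lie to the right of 0 in all 4 inhibitor panels.

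Per length of annotated exons, *Cdkn1a* was the most abundant of the 9 mRNAs, with a mean over the 24 libraries of 76.0 RPKM (CPM per kilobase of exon). It was followed by *Ccng1* (48.7 RPKM), *Sesn1* (26.8), *Mdm2* (23.2), *Trp53* (14.0), *Trp53inp1* (11.5), *Phlda3* (7.56), *Zmat3* (4.48) and *Aen* (2.49, with an exon set of 11356 bases). For some genes the set of all annotated exons is far longer than the canonical transcript. The 2 lengths are 7379 and 1850 bases for *Trp53*, 6045 and 1923 for *Cdkn1a*, 7709 and 3099 for *Mdm2*, and 5041 and 2600 for *Sesn1*. The order of these mRNAs therefore depends on the length used. The range between conditions had another order. The highest group mean was 12.7 times the lowest for *Sesn1*, 3.15 times for *Phlda3*, 2.97 for *Trp53inp1*, 2.19 for *Cdkn1a*, 2.17 for *Aen*, 1.86 for *Zmat3*, 1.59 for *Mdm2*, 1.55 for *Ccng1* and 1.30 for *Trp53*. *Trp53* thus had the narrowest range of the 9 genes, and *Sesn1* the widest.

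**Figure D2:**
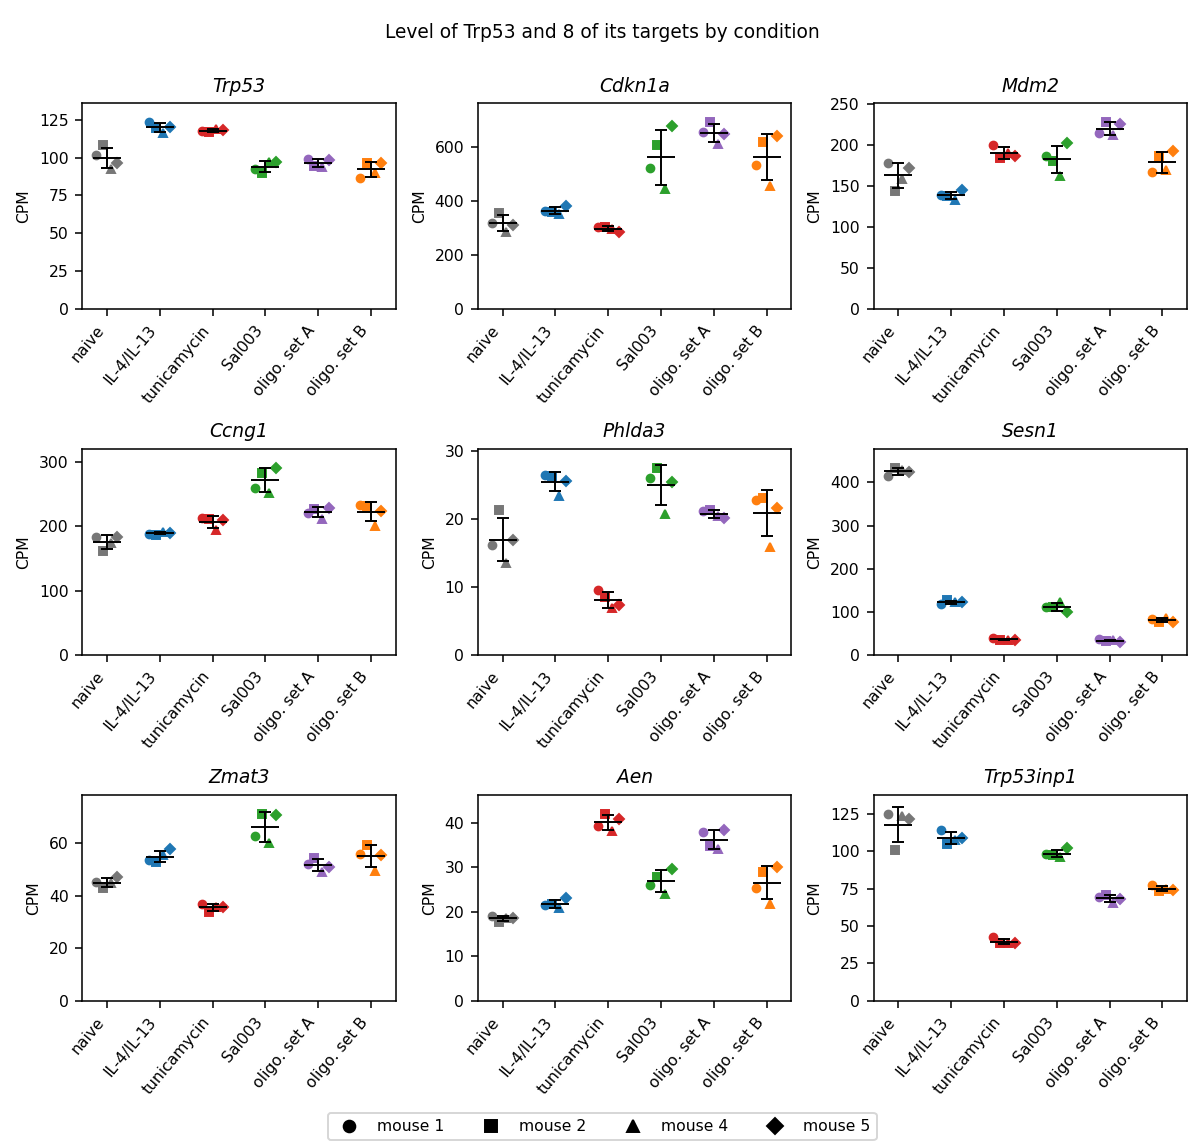
Level in CPM (linear axes from 0) of the 9 genes in the 6 conditions; each point is 1 library, its shape gives the mouse, and the black bars give the mean and SD of 4 libraries. *Sesn1* drops from 425 CPM in naive cells to 33.5 CPM in oligomycin set A, and *Cdkn1a* shows its widest spread between mice with Sal003 and in oligomycin set B.

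*Trp53* itself (chr11:69469669-69482701, plus strand) rose with the cytokines and lay lower with 3 of the 4 inhibitor treatments. In mice 1, 2, 4 and 5 it was measured at 102, 108, 92.5 and 96.4 CPM in naive cells, and at 123, 119.8, 116 and 120.3 CPM with IL-4/IL-13. The groups did not overlap, and the rise was 0.27 ± 0.05 log2 units (SE, adjusted *P* = 2.12e-05). With tunicamycin all 4 libraries lay between 117 and 119 CPM, within the range of IL-4/IL-13, and the difference of −0.03 had a 95% interval from −0.12 to 0.07. *Trp53* fell to 94.1 ± 3.67 CPM with Sal003 (log2 change −0.35, adjusted *P* = 6.99e-07), to 96.3 ± 2.65 CPM in oligomycin set A (−0.32, adjusted *P* = 1.55e-06) and to 92.2 ± 5.04 CPM in set B (−0.38, adjusted *P* = 1.66e-07). In these 3 groups every library was below every IL-4/IL-13 library. Against naive cells, the difference was called for set B (−0.11, adjusted *P* = 0.0373) and not for Sal003 (−0.08, 0.122) or set A (−0.05, 0.338). At 1 other locus of the genome, an approximate alignment matched 66.3% of the bases of the *Trp53* transcript (72.9% of the aligned bases). Its counts are therefore uncertain to an extent that was not measured. On the opposite strand, 5.68% of its exon bases overlap *Wrap53* and *Gm57392*, of which *Wrap53* had 157 to 261 counts per library.

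*Cdkn1a* (chr17:29309936-29319701, plus strand), the classical p53 target that halts the cell cycle, was higher in both oligomycin sets and with Sal003 than in the other 3 conditions. Its mean with tunicamycin was not distinguished from that of naive cells (−0.10, 95% interval −0.30 to 0.11, adjusted *P* = 0.394). In mice 1, 2, 4 and 5 its level was 318, 358, 287 and 310.3 CPM in naive cells and 362, 359, 353 and 383 CPM with IL-4/IL-13. These groups overlapped, since mouse 2 had nearly the same level in both, and the difference of 0.19 ± 0.10 was not called (adjusted *P* = 0.0994), although with the mouse as a replicate block it was (0.20, adjusted *P* = 0.0259), as with no filter on low counts (0.0163) and with only the groups compared (0.0329). With tunicamycin the values were 304, 306, 296 and 286 CPM. All 4 lay below all IL-4/IL-13 libraries, a fall of 0.29 ± 0.10 log2 units (adjusted *P* = 0.0122) that did not pass without mouse 1 (adjusted *P* = 0.0737) or without mouse 5 (0.0725).

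With Sal003 *Cdkn1a* reached 521, 609, 444 and 678 CPM, with oligomycin set A 656, 693, 611 and 648 CPM, and with oligomycin set B 532, 618, 455 and 642 CPM. Every one of these 12 libraries exceeded every IL-4/IL-13 library, and the 4 libraries of set A lay closest together (652 ± 33.6 CPM, against 563 ± 102 with Sal003 and 562 ± 85.4 in set B). The rises over IL-4/IL-13 were 0.63 ± 0.10 with Sal003 (adjusted *P* = 1.11e-05), 0.84 ± 0.10 in set A (adjusted *P* = 7.15e-08) and 0.63 ± 0.10 in set B (adjusted *P* = 1.01e-05). Mouse 4 had the lowest *Cdkn1a* of the 4 mice in every condition except tunicamycin. It was below the group mean in 6 of 6 conditions, as it also was for *Mdm2* and *Phlda3*.

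Compared directly with the other inhibitors, *Cdkn1a* with tunicamycin was lower by 1.13 ± 0.10 log2 units than in oligomycin set A (adjusted *P* = 4.63e-10), and it was lower by 0.92 ± 0.10 than in set B (1.38e-08) and than with Sal003 (1.24e-08). Sal003 and set B had almost equal means, with a 95% interval of the difference from −0.21 to 0.20. Set A exceeded set B by 0.21 (95% interval 0.01 to 0.42, adjusted *P* = 0.092), in 4 of 4 mice but with overlapping groups. With the mouse as a replicate block the adjusted *P* of that difference was 0.0185, without mouse 5 it was 0.0394, and with no filter on low counts it was 0.0294. The opposite strand of 8.34% of the *Cdkn1a* exon bases carries the noncoding gene *Dino*, which had between 0 and 10 counts per library.

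The feedback genes *Mdm2* (chr10:117524780-117546730, minus strand), the ubiquitin ligase of p53, and *Ccng1* (chr11:40639377-40646148, minus strand), a cyclin G that acts through MDM2, were higher with each inhibitor than with the cytokines alone. *Mdm2* was at 178, 144, 159 and 172 CPM in naive cells and at 139, 137, 134 and 145 CPM with IL-4/IL-13. The groups overlapped through mouse 2, and the fall of 0.23 ± 0.06 (adjusted *P* = 0.00295) did not pass without mouse 1 (adjusted *P* = 0.0549). Its level was 200.3, 185, 190.2 and 187 CPM with tunicamycin, 186, 180.3, 162 and 202 CPM with Sal003, 215, 228, 212 and 226 CPM in oligomycin set A, and 167, 187, 170.0 and 193 CPM in set B. All 16 of these libraries exceeded the 4 IL-4/IL-13 libraries. The rises were 0.46 ± 0.06 (adjusted *P* = 6.04e-07), 0.40 ± 0.06 (1.21e-05), 0.67 ± 0.06 (1.59e-09) and 0.37 ± 0.06 (2.81e-05). Set A was above set B in each mouse, by 0.30 ± 0.06 (adjusted *P* = 0.000512), with no overlap. The gene *Gm56970*, with 0 to 3 counts per library, lies opposite 4.51% of the exon bases of *Mdm2*.

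*Ccng1* had its highest level with Sal003, at 259, 283, 251 and 290.3 CPM, against 188, 187, 191 and 189.6 CPM with IL-4/IL-13. This was a rise of 0.52 ± 0.05 (adjusted *P* = 1.19e-08), and both oligomycin sets rose by 0.23 ± 0.05 (adjusted *P* = 0.000533 in set A and 0.000683 in set B). Their means of 221.6 ± 7.88 and 222 ± 14.7 CPM were nearly equal, with a 95% interval of the log2 difference from −0.11 to 0.11. With tunicamycin *Ccng1* was at 207 ± 9.10 CPM, a rise of 0.13 ± 0.05 (adjusted *P* = 0.0306) that did not pass without mouse 1 (0.0666) or mouse 2 (0.0905), with upper-quartile normalization (0.187), with RLE normalization (0.0676), with 10 counts required in every library (0.156) or with DESeq2 (0.0711). The cytokine effect of 0.11 ± 0.05 was not called (adjusted *P* = 0.0903), and was called with the mouse as a replicate block (adjusted *P* = 0.0493), with RLE normalization (0.0447) and with DESeq2 (0.0374). On the opposite strand, 2.59% of the *Ccng1* exon bases overlap *Nudcd2*, which had 413 to 1078 counts per library.

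Of the 3 genes of cell death and survival, *Aen* (chr7:78545602-78560957, plus strand), which encodes a nuclease active in apoptosis, rose in every comparison with IL-4/IL-13. It was at 19.0, 17.8, 18.6 and 18.6 CPM in naive cells and at 21.4, 21.7, 20.7 and 23.0 CPM with IL-4/IL-13, a rise of 0.23 ± 0.08 (adjusted *P* = 0.0176) with no overlap, which did not pass without mouse 2 (adjusted *P* = 0.0754). Its level reached 39.2, 42.0, 38.1 and 40.9 CPM with tunicamycin and 37.8, 34.7, 34.0 and 38.4 CPM in oligomycin set A. Neither group overlapped IL-4/IL-13, and the rises were 0.89 ± 0.08 (adjusted *P* = 1.37e-10) and 0.74 ± 0.08 (6.69e-09). The rises with Sal003 (to 26.9 ± 2.40 CPM) and in set B (to 26.5 ± 3.79 CPM) were smaller, at 0.31 ± 0.08 (adjusted *P* = 0.00207) and 0.30 ± 0.08 (0.00265), and in set B mouse 4 lay within the IL-4/IL-13 range. Set A exceeded set B by 0.44 ± 0.08 (adjusted *P* = 3.64e-05). Parts of the *Aen* transcript aligned to 161 other loci of the genome, with at most 19.4% of its bases matched at 1 of them. The effect of these copies on its counts was not measured.

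*Phlda3* (chr1:135693809-135697686, plus strand), which encodes a repressor of the survival kinase AKT, rose with the cytokines and fell below its naive level with tunicamycin. In mice 1, 2, 4 and 5 it was at 16.2, 21.3, 13.6 and 16.9 CPM in naive cells, at 26.5, 26.4, 23.5 and 25.6 CPM with IL-4/IL-13, and at 9.55, 8.52, 6.98 and 7.34 CPM with tunicamycin. These 3 groups did not overlap one another. The rise with the cytokines was 0.59 ± 0.12 (adjusted *P* = 0.000119) and the fall with tunicamycin was 1.65 ± 0.13 log2 units (adjusted *P* = 1.17e-11). With Sal003 it was at 25.0 ± 2.92 CPM and the difference from IL-4/IL-13 had a 95% interval from −0.26 to 0.21. The falls in both oligomycin sets were small, by 0.29 ± 0.11 in set A (adjusted *P* = 0.0278) and by 0.28 ± 0.11 in set B (0.0395). The call in set A was lost without mouse 1 (adjusted *P* = 0.0924), 2 (0.0513) or 5 (0.109), and that in set B without mouse 1 (0.0785), 4 (0.0538) or 5 (0.0923).

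*Trp53inp1* (chr4:11156412-11175230, plus strand), whose product promotes p53 activity and autophagy, was at 125, 101, 124 and 122 CPM in naive cells and at 114, 104, 107 and 109 CPM with IL-4/IL-13. The groups overlapped and the difference of −0.12 was not called (adjusted *P* = 0.0585), but it was with the mouse as a replicate block (0.0405), without mouse 2 (0.00233), with upper-quartile normalization (0.0236) and with 10 counts required in every library (0.0428). Tunicamycin brought it to 42.4, 38.8, 38.6 and 38.6 CPM, far below every other group, with a fall of 1.46 ± 0.06 log2 units (adjusted *P* = 7.93e-18). Oligomycin set A was at 69.1, 70.5, 65.7 and 68.2 CPM and set B at 77.3, 73.5, 74.6 and 73.8 CPM, falls by 0.67 ± 0.05 (adjusted *P* = 5.51e-11) and by 0.54 ± 0.05 (5.00e-09). The sets did not overlap, and their difference of −0.13 ± 0.05 had an adjusted *P* of 0.0593 that became 0.0397 with the mouse as a replicate block and 0.00956 without mouse 2. It was also under 0.05 with RLE normalization (0.0479), 10 counts required in every library (0.0427), only the groups compared (0.0217) and DESeq2 (0.0487). The fall with Sal003 was 0.14 ± 0.05 (adjusted *P* = 0.0262), which did not pass without mouse 1 (0.101), 4 (0.105) or 5 (0.0535) or with no filter on low counts (0.0767).

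*Sesn1* (chr10:41685931-41784423, plus strand), which encodes sestrin 1, had the widest range of the 9 genes. Its levels in mice 1, 2, 4 and 5 were 415, 434, 428 and 425 CPM in naive cells and 119, 127, 122 and 122 CPM with IL-4/IL-13, a fall of 1.80 ± 0.05 log2 units (adjusted *P* = 2.54e-19) that was nearly the same in each mouse, from −1.81 to −1.78. With tunicamycin it fell further, to 38.6, 35.1, 35.5 and 35.8 CPM, and in oligomycin set A to 36.3, 32.5, 33.8 and 31.3 CPM. These groups overlapped each other and neither overlapped any other group. The falls from IL-4/IL-13 were 1.75 ± 0.06 (adjusted *P* = 2.56e-19) and 1.87 ± 0.06 log2 units (4.32e-19). In oligomycin set B it was at 83.8, 76.7, 85.0 and 77.4 CPM, which was lower than IL-4/IL-13 by 0.60 ± 0.05 (adjusted *P* = 8.80e-10) and above all libraries of set A. Of the 9 genes, *Sesn1* had the largest difference between the sets, which was −1.27 ± 0.06 for set A against set B (adjusted *P* = 1.62e-14). With Sal003 the values were 112, 112, 123 and 100.3 CPM. That difference of −0.13 missed the threshold (adjusted *P* = 0.0505) and passed with the mouse as a replicate block (0.0292), without mouse 4 (0.0232), with upper-quartile normalization (0.013), RLE normalization (0.0292), 10 counts required in every library (0.0211), only the groups compared (0.0404) and DESeq2 (0.0294). The gene *Cep57l1* lies opposite 10.9% of the exon bases of *Sesn1* and had 57 to 126 counts per library.

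*Zmat3* (chr3:32388941-32420163, minus strand) rose with the cytokines from 45.3, 42.7, 44.7 and 47.1 CPM to 53.4, 52.9, 55.4 and 57.5 CPM (0.29 ± 0.06, adjusted *P* = 0.00016). It fell with tunicamycin to 36.7, 33.8, 35.7 and 35.8 CPM, below all naive libraries (−0.63 ± 0.06 against IL-4/IL-13, adjusted *P* = 6.26e-10). It rose with Sal003 to 62.6, 71.2, 60.1 and 70.6 CPM (0.27 ± 0.06, adjusted *P* = 0.000318). In this gene tunicamycin and Sal003 thus gave the lowest and the highest group. The oligomycin sets overlapped with IL-4/IL-13, and the 95% intervals of their differences from it ran from −0.21 to 0.03 (set A) and from −0.12 to 0.12 (set B).

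The 2 oligomycin sets were compared directly, as the design includes 1 set with and 1 set without ISRIB. *Mdm2* and *Aen* were higher in set A and *Sesn1* was lower, so that 3 of the 9 genes were called where 41.2% of all genes were (19.9% higher and 21.3% lower). The sets did not overlap for 4 of the 9 (41.6% of all genes), and none passed 2.5-fold (2.62% of all genes did). With the mouse as a replicate block, *Cdkn1a* (higher in set A) and *Trp53inp1* (lower) were called as well, which made 5. For *Trp53*, *Ccng1*, *Phlda3* and *Zmat3* the 95% intervals of the log2 difference ran from −0.03 to 0.16, from −0.11 to 0.11, from −0.25 to 0.23 and from −0.21 to 0.03.

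The wider p53 pathway was described with lists of other known targets, regulators and paralogs, chosen for their roles. Together these held 94 genes besides the 9, of which 88 were tested, while *Cdkn2a*, *Perp*, *Phlda2*, *Trp63*, *Trp73* and *Zmat4* had too few reads. The counts of these lists stand beside shares of all genes that were higher and lower of 38.7% and 37.6% with tunicamycin, 25.9% and 24.6% with Sal003, 34% and 32.2% in oligomycin set A, and 27.9% and 26.4% in set B. Some of the genes named share exon bases with a gene on the opposite strand, namely *Gpx1* (85.3%), *Gadd45a* (55.8%), *Cdkn1c* (29%), *Ccna2* (17.5%), *Btg2* (14.3%), *Rrm2b* (7.68%), *Cdkn1b* (5.21%), *Plk3* (3.1%), *Ephx1* (0.913%) and *Sesn3* (0.137%), or on the same strand, namely *Bax* (10.3%) and *Ephx1* (0.913%), so their counts are uncertain to an extent that was not measured. Among the 9 targets of arrest and growth control, 1 rose and 7 fell with tunicamycin (median −0.61, where 76.3% of all genes were called), 2 rose and 5 fell with Sal003 (−0.29), 2 rose and 5 fell in oligomycin set A (−0.28), and 2 rose and 4 fell in set B (−0.25). *Gadd45a* encodes a stress sensor that arrests the cycle. The study also relates it to the integrated stress response, which follows phosphorylation of eIF2α. This gene rose from 7.76 ± 1.06 CPM with IL-4/IL-13 to 102 ± 6.49 CPM with tunicamycin, and to 66.9 ± 3.62 and 19.8 ± 2.14 CPM in oligomycin sets A and B. These were log2 changes of 3.72 ± 0.11, 3.11 ± 0.11 and 1.36 ± 0.12 (adjusted *P* = 7.93e-20, 1.23e-17 and 7.78e-10), and set A exceeded set B by 1.75 ± 0.10 (8.66e-13). *Btg2*, an antiproliferative target, went the other way, from 127 ± 10.1 CPM to 56.0 ± 2.35 CPM (tunicamycin), 49.6 ± 3.18 (Sal003), 23.1 ± 0.488 (set A) and 50.1 ± 3.00 (set B) (log2 changes −1.19, −1.36, −2.46 and −1.35, the highest adjusted *P* being 8.56e-16). *Tob1*, a relative of *Btg2*, also fell in all 4 (−1.40, −0.45, −0.93 and −0.63). The kinase gene *Plk2* and its relative *Plk3* rose with the cytokines by 1.25 ± 0.07 and 1.63 ± 0.11.

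Of the 9 tested cell death targets, 2 rose and 6 fell with tunicamycin (median −0.52), 3 rose and 4 fell with Sal003 (0.13), 2 rose and 3 fell in oligomycin set A (−0.12), and 3 fell and none rose in set B (−0.09). Of all genes, 76.3%, 50.6%, 66.2% and 54.3% were called in the same order. *Fas*, the death receptor, was at 8.30, 7.46, 7.27 and 7.28 CPM with IL-4/IL-13 and at 81.1, 86.5, 84.5 and 80.2 CPM with tunicamycin, a rise of 3.45 ± 0.08 (adjusted *P* = 1.16e-22). The same gene rose by 0.40 ± 0.08 in set A and fell by 0.54 ± 0.09 with Sal003 and by 0.56 ± 0.09 in set B. *Bax*, which permeabilises the mitochondrial outer membrane, rose by 0.75 ± 0.10 with tunicamycin (adjusted *P* = 2.52e-07) and by 0.61 ± 0.10 in set A (7.92e-06). *Pidd1* fell in all 4 comparisons, by 1.34 ± 0.11, 0.49 ± 0.10, 0.84 ± 0.10 and 0.93 ± 0.11. Both *Fas* and *Bax* differed between the oligomycin sets, with higher levels in set A (0.96 ± 0.09 and 0.40 ± 0.10).

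Among the 8 targets in DNA repair and nucleotide supply, 2 rose and 4 fell with tunicamycin (median −0.06), 4 rose and 1 fell with Sal003 (0.18), 4 rose and 2 fell in set A (0.15), and 2 rose and 1 fell in set B (0.06). The shares of all genes called were 76.3%, 50.6%, 66.2% and 54.3%, for this list and the next. *Rrm2b*, the p53-inducible subunit of ribonucleotide reductase, rose by 1.37 ± 0.08 with tunicamycin (adjusted *P* = 4.13e-14) and by 0.29 ± 0.08 with Sal003 (0.0049). In oligomycin sets A and B it rose by 0.49 ± 0.08 (8.84e-06) and by 0.31 ± 0.08 (0.00255). *Polh*, a translesion polymerase, fell in all 4, by 0.66, 0.68, 0.88 and 0.84. The 16 targets in metabolism and autophagy had 6 rises and 10 falls with tunicamycin (median −0.75), 4 and 5 with Sal003 (−0.11), 4 and 8 in set A (−0.43), and 3 and 6 in set B (−0.11). Among genes of this list with a mean of at least 5 CPM over the groups compared, the largest changes with each inhibitor were falls of *Ephx1*, an epoxide hydrolase, from 238 ± 8.46 CPM with IL-4/IL-13 to 13.9 ± 2.83 CPM (tunicamycin), 60.9 ± 9.67 (Sal003), 32.3 ± 2.54 (set A) and 55.1 ± 10.5 (set B). *Gpx1*, a glutathione peroxidase, fell by 1.88, 0.68, 1.43 and 0.83 in the same order.

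Some p53 targets are also known targets of ATF4 or CHOP, the transcription factors of the integrated stress response. Of the 7 in this list, 3 rose and 3 fell with tunicamycin (median −0.22), 2 rose and 2 fell with Sal003 (−0.04), 4 rose and 1 fell in set A (0.34), and 3 rose and none fell in set B (0.19), where 76.3%, 50.6%, 66.2% and 54.3% of all genes were called. The rises were led by *Gdf15*, a secreted stress cytokine, which went from 2.61 ± 0.53 CPM with IL-4/IL-13 to 138 ± 7.78 CPM (tunicamycin), 10.2 ± 2.01 (Sal003), 41.7 ± 1.44 (set A) and 25.4 ± 1.79 (set B). *Atf3*, itself a transcription factor of that response, fell from 866 CPM with IL-4/IL-13 to 311 CPM with tunicamycin (−1.48 ± 0.05, adjusted *P* = 2.53e-19). Among the 16 tested regulators of p53, 6 rose and 4 fell with tunicamycin (median 0.10), 3 and 6 with Sal003 (0.04), 5 and 5 in set A (0.02), and 4 and 5 in set B (0.00), against the same shares of all genes. The lowest log2 changes in this list were −2.58, −3.05, −3.12 and −2.97 in the same order. They belonged to genes that were not called or had a mean under 5 CPM, and so are not named. Among called regulators above that level, *Hipk2* and *Chek2* fell with tunicamycin by 1.91 ± 0.22 and 1.02 ± 0.05, while the p53 ligase gene *Cop1* rose by 0.78 ± 0.05. *Chek2* also fell in set A (0.72 ± 0.05) and set B (0.49 ± 0.05), and *Hipk2* rose in set B (0.51 ± 0.20). *Mdm4*, the partner of MDM2 that inhibits p53, was higher in set A than in IL-4/IL-13 (0.43 ± 0.10, adjusted *P* = 0.000452) and than in set B (0.49 ± 0.10, 0.000236).

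**Figure D3:**
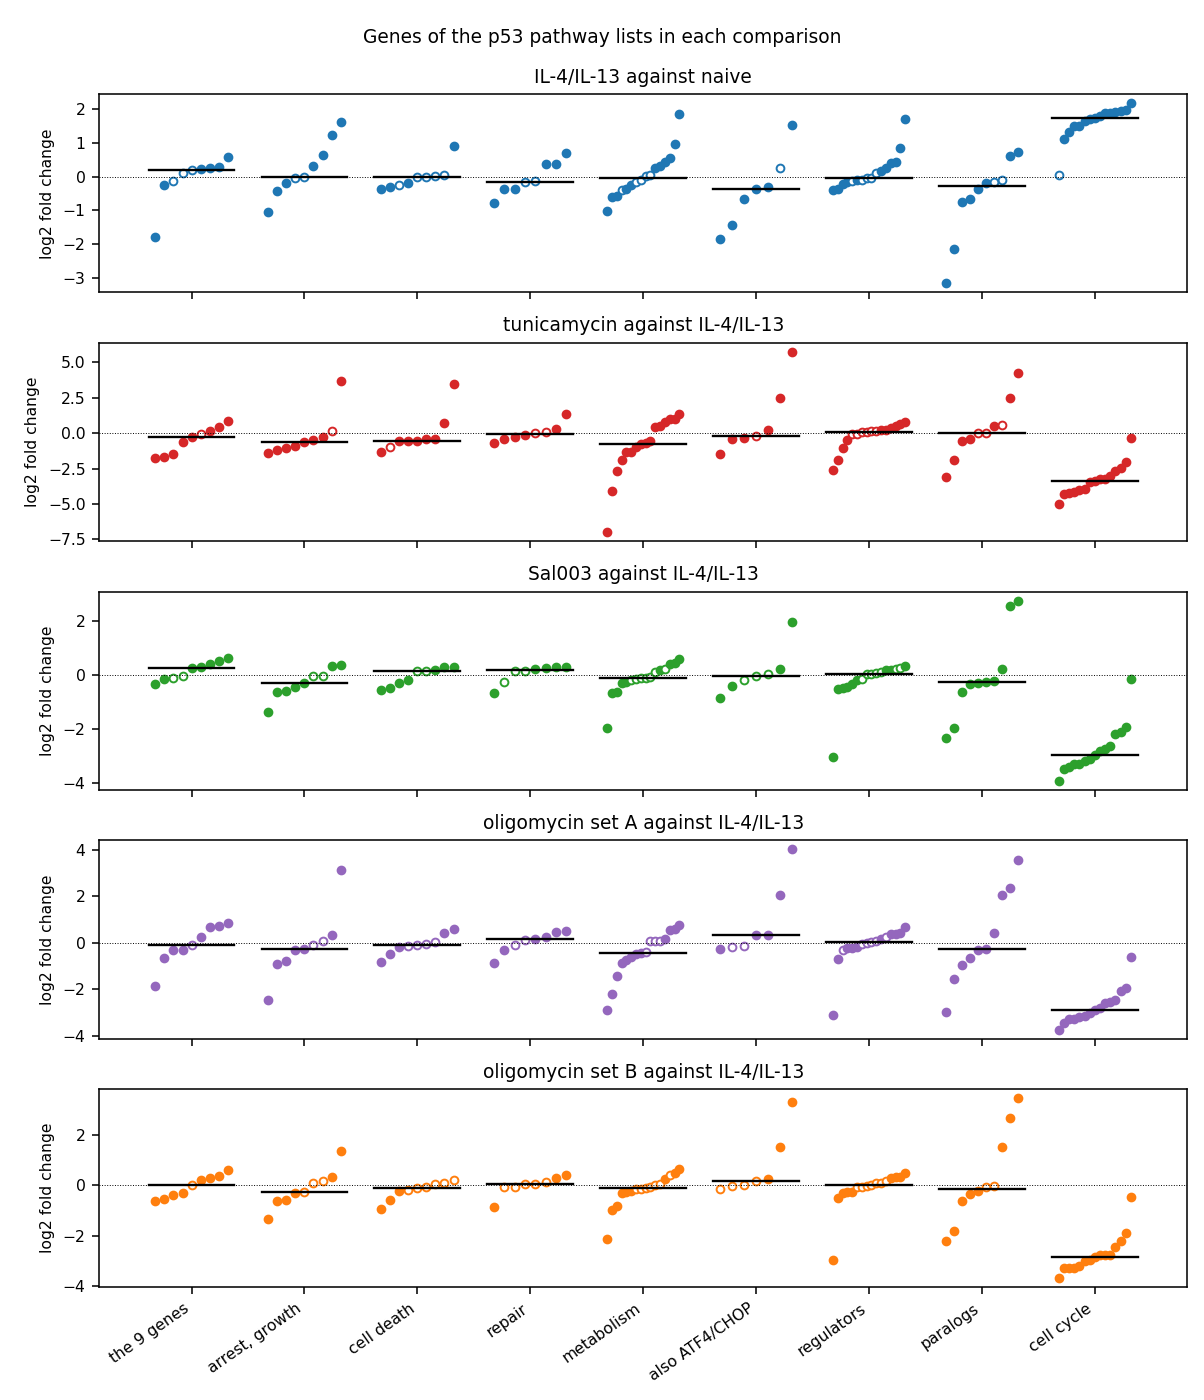
Log2 fold change of every tested gene in each p53 pathway list in the 5 comparisons; each point is 1 gene, filled where the adjusted P was under 0.05 (edgeR), and the black line is the median of the list. The target lists hold values on both sides of 0 in every panel, while all 15 cell cycle genes lie below 0 with each inhibitor.

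The sestrin family separated by member. *Sesn2* fell with the cytokines by 0.67 ± 0.06 (adjusted *P* = 1.19e-09), as *Sesn1* did, but rose with tunicamycin and oligomycin, from 30.0, 30.2, 31.4 and 35.3 CPM with IL-4/IL-13 to 178, 182, 175 and 187 CPM with tunicamycin and 138, 134, 125 and 132 CPM in oligomycin set A. The groups did not overlap, and the log2 changes were 2.51 ± 0.06 (adjusted *P* = 1.76e-21) and 2.06 ± 0.06 (4.17e-19), with 1.53 ± 0.06 in set B (4.62e-16) and 0.21 ± 0.06 with Sal003 (0.00883). *Sesn3* fell with all 4, from 23.6 ± 0.65 CPM to 2.72 ± 0.166 CPM (tunicamycin), 6.03 ± 1.08 (Sal003), 2.98 ± 0.385 (set A) and 5.09 ± 0.713 (set B). Per length, *Sesn1* was the most abundant sestrin mRNA in naive cells (84.4 RPKM, with *Sesn2* at 11.1), with IL-4/IL-13 (24.2 and 6.99 RPKM) and with Sal003 (22.2 and 8.06 RPKM). *Sesn2* was the most abundant with tunicamycin (39.8 RPKM, with *Sesn1* at 7.19), in set A (29.1 and 6.64 RPKM) and in set B (20.1 and 16.0 RPKM). The length used for *Sesn1* was 5041 bases of annotated exons, while its canonical transcript has 2600. The order in set B, where the levels were close, may therefore depend on the length used, which was not tested.

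The relatives of *Cdkn1a*, which encode the CDK inhibitors p27 and p57, are given as a family, whatever the size of their changes. *Cdkn1b* (p27) fell with the cytokines from 142 ± 10.2 to 84.8 ± 1.62 CPM (−0.74 ± 0.04, adjusted *P* = 1.72e-13). It then stayed between 71.2 and 86.9 CPM in the means of the inhibitor groups, with falls of 0.21 ± 0.04 with Sal003 and 0.25 ± 0.04 in set A. *Cdkn1c* (p57) was at 1.06, 1.11, 1.47 and 1.52 CPM with IL-4/IL-13, at 5.61, 9.53, 5.09 and 9.73 CPM with Sal003, at 12.1, 15.2, 12.3 and 20.6 CPM in set A, and at 11.8, 17.1, 9.16 and 18.4 CPM in set B. All of these inhibitor libraries exceeded the IL-4/IL-13 libraries, with rises of 2.54 ± 0.31 (adjusted *P* = 2.08e-07), 3.54 ± 0.29 (9.66e-11) and 3.46 ± 0.29 (3.35e-10). With tunicamycin, where *Cdkn1a* fell, *Cdkn1c* was at 1.87 ± 0.506 CPM and its difference from IL-4/IL-13 was not called (0.55 ± 0.38, adjusted *P* = 0.187). Per length *Cdkn1a* was above both relatives in all 6 conditions. Over all 10 tested paralogs, 3 rose and 4 fell with tunicamycin, 3 and 7 with Sal003, 4 and 6 in set A, and 3 and 5 in set B, where 76.3%, 50.6%, 66.2% and 54.3% of all genes were called.

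**Figure D4:**
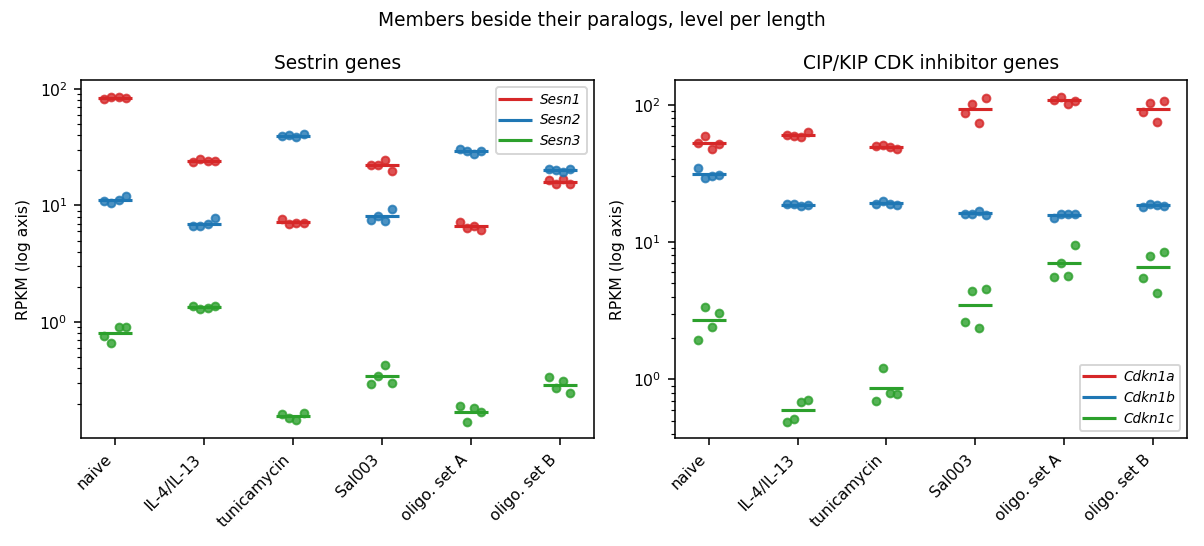
Level per exon length (RPKM, log axis) of the 3 sestrin genes and of the 3 CIP/KIP CDK inhibitor genes in the 6 conditions; points are libraries and bars are means of 4. On this scale, which uses all annotated exons, *Sesn1* and *Sesn2* change places between Sal003 and the tunicamycin and oligomycin groups. *Cdkn1a* stays above *Cdkn1b* and *Cdkn1c* throughout.

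The last list held genes that p53 and p21 are known to repress through the DREAM complex, which encode drivers of the cell cycle. Of the p53 pathway lists it had the medians farthest from 0 in these 5 comparisons. Of its 15 genes, 14 rose with IL-4/IL-13 (median 1.74), as did 30.1% of all genes, and all 15 fell with each inhibitor (37.6%, 24.6%, 32.2% and 26.4% of all genes did), by a median of −3.41 with tunicamycin, −2.95 with Sal003, −2.91 in oligomycin set A and −2.84 in set B. *Ccna2*, encoding cyclin A2, was at 9.20 ± 1.18 CPM in naive cells, 41.8 ± 7.01 CPM with IL-4/IL-13, 1.27 ± 0.105 CPM (tunicamycin), 2.77 ± 1.27 (Sal003), 3.15 ± 0.281 (set A) and 3.30 ± 0.80 (set B). *Birc5*, encoding survivin, fell by 4.30 ± 0.17, 3.50 ± 0.16, 3.47 ± 0.16 and 3.26 ± 0.15 in the same order of inhibitors. These falls were seen with tunicamycin, where *Cdkn1a* mRNA was lower than with IL-4/IL-13, as well as in the 3 groups where it was higher. The libraries measure mRNA and not p53 or p21 protein, and the cause of the falls was not tested. Between the oligomycin sets, 2 of the 15 genes differed, *Aurkb* (−0.76 ± 0.15) and *E2f1* (−0.18 ± 0.07), both lower in set A.

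Likeness of pattern was measured as the root mean square difference of log2 CPM over the 24 libraries, each gene centred on its own mean. The genes most like *Cdkn1a* were *Lpxn* (0.16), *Hmga1* (0.17), *Psmd8* (0.18), *Stx3* (0.18) and *Dhrs3* (0.18), none of them in the p53 lists. Among the 9 genes, the closest to each other were *Mdm2* and *Ccng1* (0.21), *Ccng1* and *Zmat3* (0.24), and *Mdm2* and *Aen* (0.27), and the farthest apart were *Sesn1* and *Aen* (1.61). The nearest member to *Cdkn1a* was *Zmat3* (0.33), farther away than the 5 genes above. All of these points share the same libraries and their depth, so the measure is a description.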

How the data were processed

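The authors trimmed reads with cutadapt (version 1.8), aligned them to GRCm39 with STAR (2.7) and used htseq-count (HTSeq 0.9.1) for gene counts. The deposited raw counts were used as they stand. A deposited TPM table from RSEM (1.2.31) was not used, since its header names more columns than its lines hold. The 5 rows that name no gene (12.74% to 15.231% of reads) were left out. The strand setting is not given in the sources used here, so exon overlaps with other genes are given for the 9 genes and the list genes named.

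Tests used edgeR 4.0.16 in R 4.3.3 (TMM, filterByExpr by condition, quasi-likelihood test, 1 model over 24 libraries) with Benjamini-Hochberg adjustment over 13679 genes, and were tested on simulated data. Libraries of 1 mouse share a number, and after the group means were subtracted they correlated with a median r of 0.236 (56 of 60 above 0.1), against −0.054 between mice (7 of 180). The study states no block, so the mouse as a block was an alternative, beside DESeq2 1.42.0, other scalings and filters, only the groups compared, and leaving out each mouse. No library repeated another of the same condition (chi-square per gene between replicates 2.19 to 35.91), and libraries of different conditions were not compared in this way.

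The 9 genes and all lists were chosen with earlier results of these data known. From each wider list, up to 3 genes per comparison with the largest called change and a mean of at least 5 CPM were named, and members' relatives *Cdkn1b*, *Cdkn1c*, *Sesn2* and *Sesn3* were shown as families. Not all are printed. Exon lengths and sequences are from GENCODE on GRCm39, in which 56323 gene identifiers matched. Copies were sought with minimap2 2.31. Precision is limited by 4 mice per condition.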

Additional observations from a re-analysis of the deposited data

Results flagged for a closer look

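In 3 of the 54 groups of 4 libraries (9 genes in 6 conditions), 1 library lay apart from the others by more than the limit of Dixon's test for an outlier at 95%. Chance alone gives about 1 such group in 20. With tunicamycin, *Ccng1* in mouse 4 was at 193 CPM against 209.9 to 213 CPM in the other mice. In naive cells, *Trp53inp1* in mouse 2 was at 101 CPM against 122 to 125 CPM. With tunicamycin, *Trp53inp1* in mouse 1 was at 42.4 CPM against 38.6 to 38.8 CPM. Without mouse 4 the *Ccng1* rise with tunicamycin was still called, and the effect of leaving out mouse 2 on *Trp53inp1* in IL-4/IL-13 against naive cells is given with that gene.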

How the results depend on the processing

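Of the 9 genes, the number called with at least a 2.5-fold change was 1 for IL-4/IL-13, 3 with tunicamycin, 0 with Sal003, 1 in oligomycin set A, 0 in set B and 0 between the sets, where edgeR's test without a fold limit called 6, 8, 7, 8, 8 and 3. Leaving out each mouse in turn gave 5 to 6, 6 to 8, 6 to 7, 7 to 8, 7 to 8 and 3 to 4 called genes, and 95 to 103 of the 135 combinations of gene and pair. With the mouse as a replicate block, 5 genes were called between the oligomycin sets, and the block added 6 calls over the 6 comparisons (all given with their genes), changed no other call and lost none. Over the 9 genes, 6 comparisons and 11 alternatives, 529 values kept their direction and side of the threshold, 26 passed newly, 20 no longer passed and 19 changed sign.

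The sign changes were in differences near 0 that were not called, and their cause was not tested. *Trp53* with tunicamycin was at 0.0155 with no filter on low counts and from −0.0421 to 0.0194 with a mouse left out. *Phlda3* with Sal003 ran from −0.0575 to 0.0131 with a mouse left out. *Zmat3* in oligomycin set B was at −0.0442 with upper-quartile normalization, −0.0175 with RLE normalization, −0.0182 with 10 counts required in every library, −0.0095 with only the groups compared, −0.0148 with DESeq2, and from −0.0509 to 0.0578 with a mouse left out. Between the sets, *Ccng1* was at 0.0364 with upper-quartile normalization, 0.0036 with no filter, 0.0045 with only the groups compared, and from −0.023 to 0.0313 with a mouse left out. *Phlda3* between the sets was at 0.0298 with upper-quartile normalization and from −0.1069 to 0.0328 with a mouse left out. The 5 genes most like *Cdkn1a* were the same with a smaller prior count. With 4 mice per condition the precision differed between genes. The *Cdkn1a* changes of 0.19 with IL-4/IL-13 and 0.21 between the sets were not called in the main model. Both were called from the same mice with the mouse as a replicate block.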
